A study of Camelus bactrianus with 10 samples.

Results

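The DLK1-DIO3 region is an imprinted stretch of the mammalian genome, in which genes are used from only the maternal or only the paternal chromosome. Its protein genes DLK1, RTL1 and DIO3 are expressed from the paternal copy, and its long noncoding RNAs, small nucleolar RNAs (snoRNAs) and a very large group of microRNAs (miRNAs) from the maternal copy. DLK1 restrains the formation of fat cells, DIO3 inactivates thyroid hormone, and RTL1, a gene derived from a retrotransposon, acts in placenta and muscle. A mutation in this region gives callipyge sheep their heavy hindquarters, and in mice loss of its largest miRNA cluster disturbs metabolism after birth. The miRNAs are best known from embryo, placenta, brain and muscle. Each is cut from the 5p or the 3p arm of a hairpin and finds its messenger RNA targets through its seed, bases 2 to 8 counted from the 5′ end.

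These miRNAs were measured by small RNA sequencing of exosomes, vesicles that cells release, isolated from the blood plasma of 5 thin and 5 normal Bactrian camels, with 1 library per camel. The thin camels weighed 402.6 to 421.2 kg and the normal camels 452.3 to 492.8 kg. No treatment, sex or age is given in the labels used here. All values below are the authors' normalized counts per library, in which each read stands for a whole small RNA of similar length. Levels of different miRNAs are set side by side on that scale. How evenly different sequences were captured in the libraries was not tested, so ranks, shares and arm sums describe reads and not molecules.

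Members were the rows of the table whose miRNA number and letter matched a list of 53 names of the region, taking both arms and every end or base change. This gave 48 rows of 2581 in all, or of 969 with a miRNA name, and they covered 33 of the 53 names. The other 20 names had no row with the same number and letter. The 48 rows held 46 distinct sequences of 20 to 25 bases, because the rows of miR-337-5p and of miR-654-3p were each listed under a pair of species names with the same sequence. In the camel gene table of RefSeq (assembly ASM4877302v1), RTL1 lay between DLK1 and DIO3 on the same chromosome, with no other protein gene and 51 snoRNA genes between RTL1 and DIO3. The table listed no miRNA genes and the build of the deposited data is not given in the sources used here, so no positions are given.

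The sequences below are those of the 12 rows with the highest mean, which carry most of the measured signal. They are written 5′ to 3′ with T for U, as deposited, and capitals mark the seed. In a name, L or R with a number tells how many bases the read has more or fewer than the named miRNA at its start or end.
hsa-miR-127-3p: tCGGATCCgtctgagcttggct
hsa-miR-381-3p: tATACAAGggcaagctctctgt
hsa-miR-411-5p: tAGTAGACcgtatagcgtacg
hsa-miR-369-3p: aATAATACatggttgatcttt
hsa-miR-136-3p_L-1: aTCATCGTctcaaatgagtct
hsa-miR-494-3p_R+1: tGAAACATacacgggaaacctct
hsa-miR-409-3p: gAATGTTGctcggtgaacccct
hsa-miR-382-5p: gAAGTTGTtcgtggtggattcg
hsa-miR-656-3p: aATATTATacagtcaacctct
hsa-miR-379-5p: tGGTAGACtatggaacgtagg
hsa-miR-370-3p: gCCTGCTGgggtggaacctggt
hsa-miR-409-5p: aGGTTACCcgagcaactttgcat

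No seed was shared among these 12. Over all 48 rows there were 45 distinct seeds, and 3 of them were held by more than 1 row. In each case these were rows of the same miRNA, namely miR-337-5p, miR-654-3p and miR-329-3p. Among the other named rows, miR-362-3p had the seed of miR-329-3p, and a row of miR-709 with a substitution in its seed had that of miR-485-5p. With only bases 2 to 7 compared, a further pair was found, miR-380-3p and miR-411-3p, whose reads began as follows.
hsa-miR-380-3p_R-1_1ss18AG: tATGTAATatggtccacgtct
hsa-miR-411-3p_R-1: tATGTAACacggtccactaac

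Before any comparison, libraries normal 4 and normal 5 stood apart from the other 8. Low values fell on steps that gave an estimate of reads, from 252631 in thin 2 to 2237451 in normal 5, with thin 4 next after that pair at 1469137 and all others at or under 800041. All 120 values of member rows above 0 were whole numbers of these reads, and none was under 5 reads. A value of 0 therefore stood for fewer than 5 reads and not for absence, which is 1.65 normalized counts in normal 4, 2.30 in thin 4 and 10.5 in thin 2. Rows named after a miRNA cluster of chromosome 19 that is known only from primates made up 0.487% of normal 4 and 0.445% of normal 5, and at most 0.0103% of any other library. The range of numbers used also took in miR-513, which is not of that cluster. Its 5p row had 14.2, 3.98 and 4.61 normalized counts in normal 4, normal 5 and thin 4, and its 3p row 0, 2.32 and 3.23. Rows read with T in place of G at base 9 (G9T, where base 1 is the first of the read) made up 0.724% and 0.904% of the same pair and 0.0387% to 0.110% of the others. Some rows count in both shares, such as cja-miR-1323_1ss9GT at 602 normalized counts in normal 4 and 531 in normal 5, so these are not separate signs. The part of depth, of the primate cluster rows and of the G9T rows in the results below was not tested. Whether the reads of normal 4 and normal 5 all came from camel RNA was not tested either. The comparisons of thin with normal camels and the composition of the members are given with and without this pair. Without it, 23 of the 48 member rows were detected, and the 12 rows printed above still had the 12 highest means.

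Rows named after the region's miRNAs were scarce in these plasma exosome libraries, and most of what was measured came from normal 4 and normal 5. Member rows summed to 0.111% of the total in normal 4 (95% Wilson interval 0.107% to 0.115% on the estimated reads) and 0.0670% in normal 5 (0.0637% to 0.0705%). Among the other normal libraries they made up 0.0166% of normal 1, 0.0114% of normal 2 and 0.00262% of normal 3. In thin 1 to thin 5 the share was 0.00712%, 0.0352%, 0.0315%, 0.0125% and 0.00411%. Both high libraries were of the normal group and the lowest was normal 3, so the range of the thin libraries lay inside that of the normal ones. In estimated reads this was 2392 in normal 4 and 1499 in normal 5, against 16 in thin 5 and 21 in normal 3. These intervals cover counting error only. Normal 4 and normal 5 held 63.3% of the members' summed normalized counts, while they held 21.8% of the normalized counts of the whole table.

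The number of member rows with a value over 0 was 9, 5, 2, 37 and 31 in normal 1 to normal 5, and 4, 5, 11, 14 and 2 in thin 1 to thin 5. Of the 48 rows, 22 were detected in a single library and 1, miR-127-3p, in all 10, while 20.4% of all rows with a miRNA name were in a single library and 29.0% in all. In 5 or more libraries there were 9 members, against 48.9% of named rows. Only normal 4, normal 5 or both held 25 of the 48 members, against a background of 22.7% of named rows. In normal 4 or normal 5 there were 46 members with a background of 88.9%, in both of them 22 with a background of 63.9%, and in thin 4 there were 14 with a background of 59.8%. Detection only in normal libraries was seen for 29 members, with a background of 31.3%, and detection only in thin libraries for 2, with a background of 5.68%. Those 2 were miR-376c-3p in thin 4 and a miR-376b-3p row in thin 2. Of the 25 rows found only in normal 4 or normal 5, 6 reached 10.5 normalized counts there, the least that every library could show, or 24.0%, close to the 50 of 220 named rows (22.7%) that did so. Those 6 rows were therefore lower in all 8 other libraries, and the remaining rows were under the floor of at least 1 other library.

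**Figure D1:**
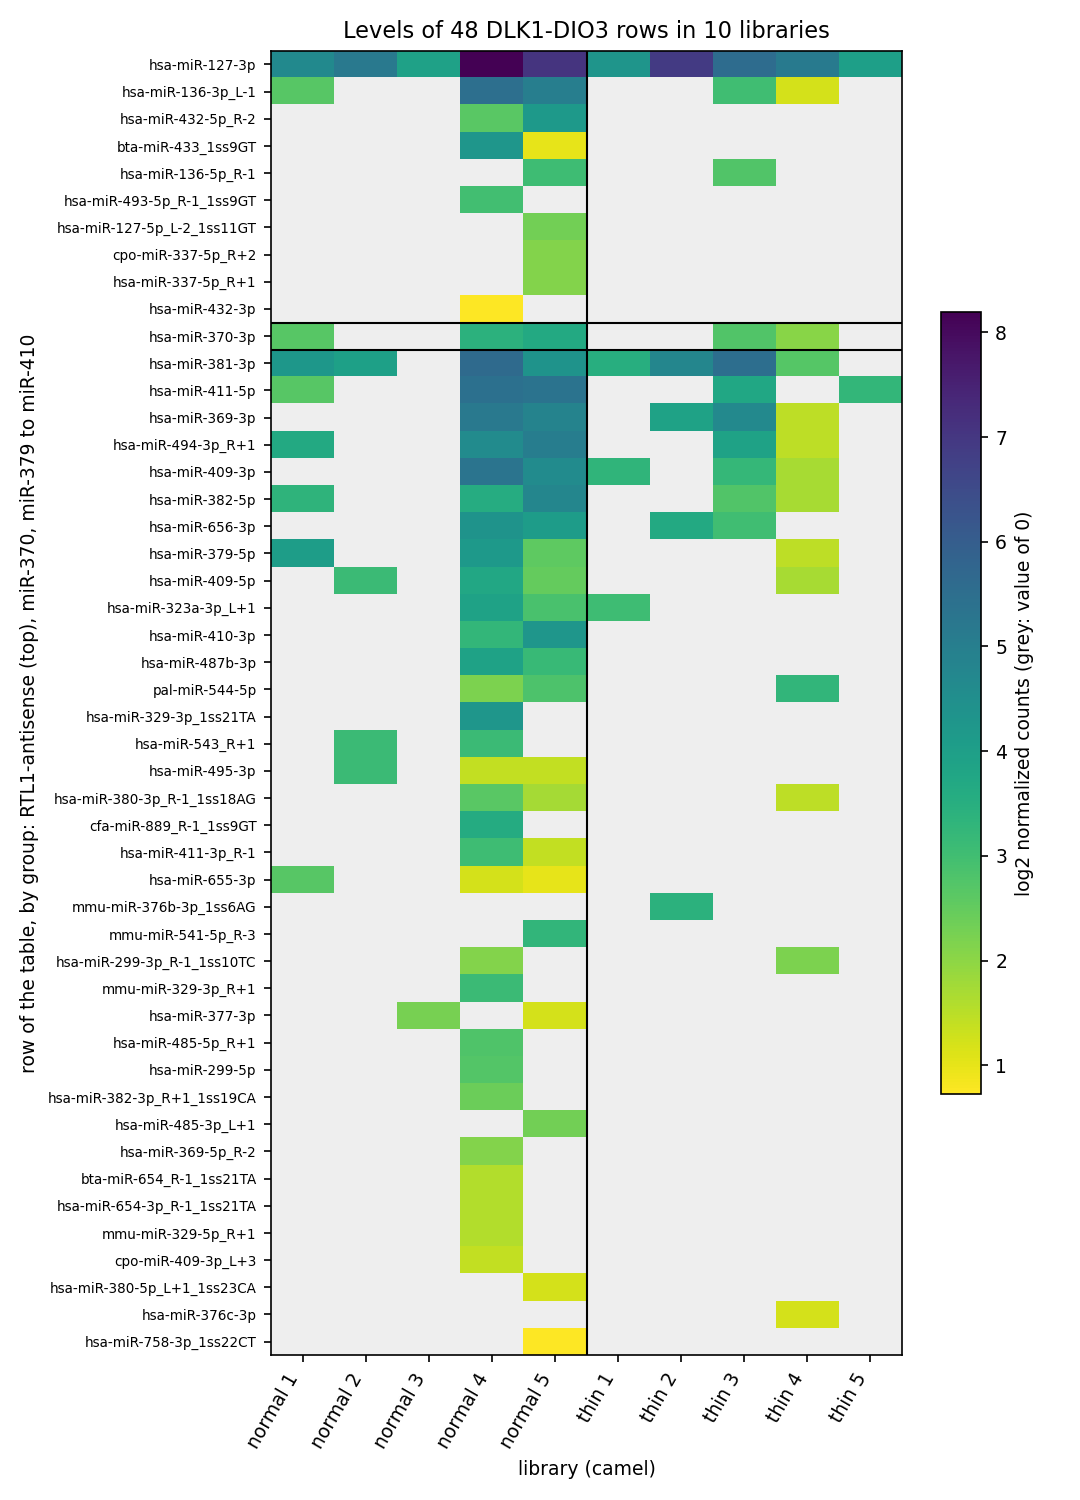
Levels of the 48 member rows (vertical axis, by group of the region and then by mean) in the 10 libraries (horizontal axis), as log2 normalized counts by colour, with a value of 0 in grey. Normal 4 and normal 5 hold 37 and 31 coloured cells, and only the top row, miR-127-3p, is coloured in all 10 libraries.

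Thin and normal camels were compared by 8 measures per library, each tested by exact permutation of the camels between groups, two-sided, where the smallest possible p is 0.00794. The p-values measure the spread between separate camels. The normal camels had 16.8 ± 16.0 detected member rows and the thin camels 7.2 ± 5.07 (SD, n = 5 per group; exact p = 0.333, Benjamini-Hochberg adjusted p = 0.559 over the 8 measures). The members' share averaged 0.0417 ± 0.0461% among normal camels against 0.0181 ± 0.0143% among thin ones (exact p = 0.349, adjusted p = 0.559). Their summed level was 299 ± 333 normalized counts among normal camels against 108 ± 77.6 among thin ones (exact p = 0.349). The SD was about as large as the mean in the normal group, and none of these differences exceeded the spread between camels.

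Without normal 4 and normal 5 the order turned. Detected rows averaged 5.33 in the 3 normal and 7.2 in the 5 thin libraries (exact p = 0.625), and members made up 0.0102% and 0.0181% (exact p = 0.393). With thin 4, the remaining deep library, also left out, the shares were 0.0102% and 0.0195% (exact p = 0.4). The direction of the difference in the members' share thus rested on normal 4 and normal 5. With values under 10.5 set to 0 in every library, the rows left numbered 4, 2, 1, 17 and 12 in normal 1 to normal 5 and 2, 5, 5, 1 and 1 in thin 1 to thin 5 (exact p = 0.341). At that common floor normal 4 and normal 5 held the most member rows. All rows with a miRNA name were not counted per library at this floor, so these numbers have no background beside them.

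**Figure D2:**
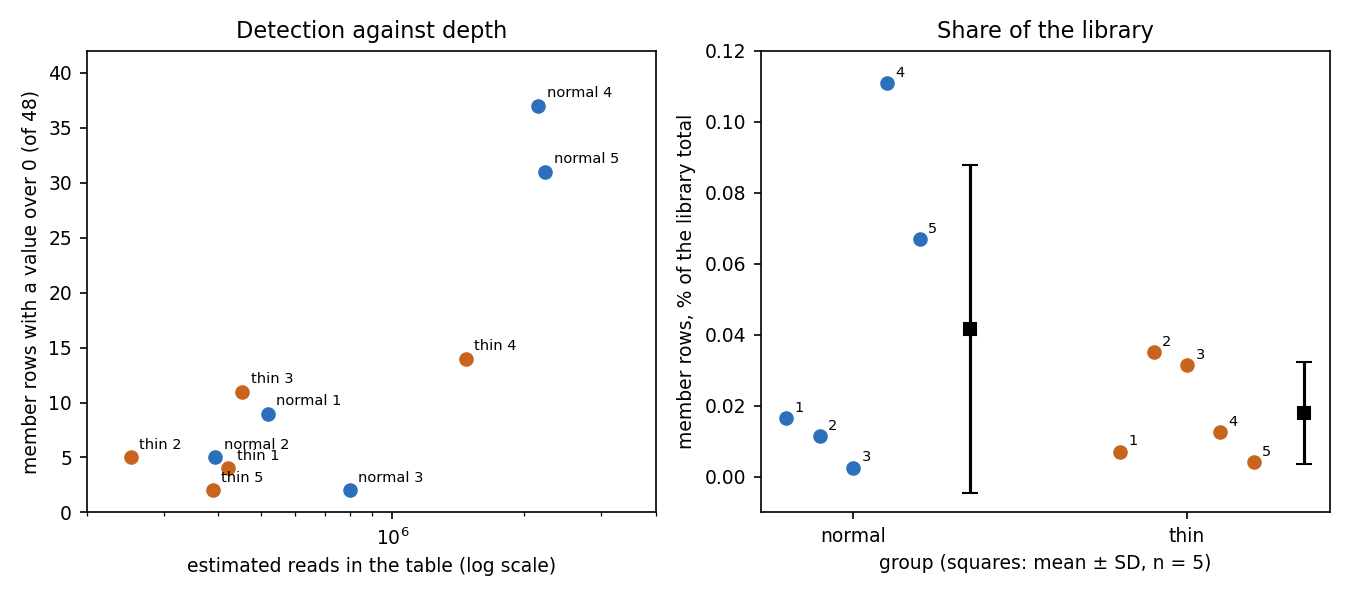
Left, member rows with a value over 0 (of 48) against the estimated reads of each library on a log axis. Right, member rows as percent of each library's total, with the group mean ± SD (n = 5) as squares; normal 4 and normal 5 lie at 0.111% and 0.0670%, above every thin library, and normal 3 lies lowest at 0.00262%.

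The 3 deepest libraries allow a closer look, as their floors were the lowest. At a floor of 2.30 normalized counts, which all 3 could show, normal 4 held 36 member rows, normal 5 held 28 and thin 4 held 14. All rows with a miRNA name numbered 685, 662 and 553 at the same floor. Of the 13 members found in both normal 4 and thin 4, 11 were lower in thin 4, against 51.8% of named rows found in both. The median ratio of thin 4 to normal 4 was 0.155 over these members. The same ratio over the 515 named rows found in both was 0.963. Against normal 5 the median ratio was 0.287 over 12 members and 0.892 over 511 named rows. Of these, 11 members and 60.7% of the named rows were lower in thin 4. The named rows were not matched to the members in level. The members of thin 4 thus stood lower than those of normal 4 and normal 5 while the ratio over named rows was near 1, in a description of 3 libraries that has no replicate check. The exceptions against normal 4 were miR-544-5p, at 4.62 normalized counts in normal 4, 6.96 in normal 5 and 9.68 in thin 4, and a row of miR-299-3p, at 4.29, 0 and 4.61.

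**Figure D3:**
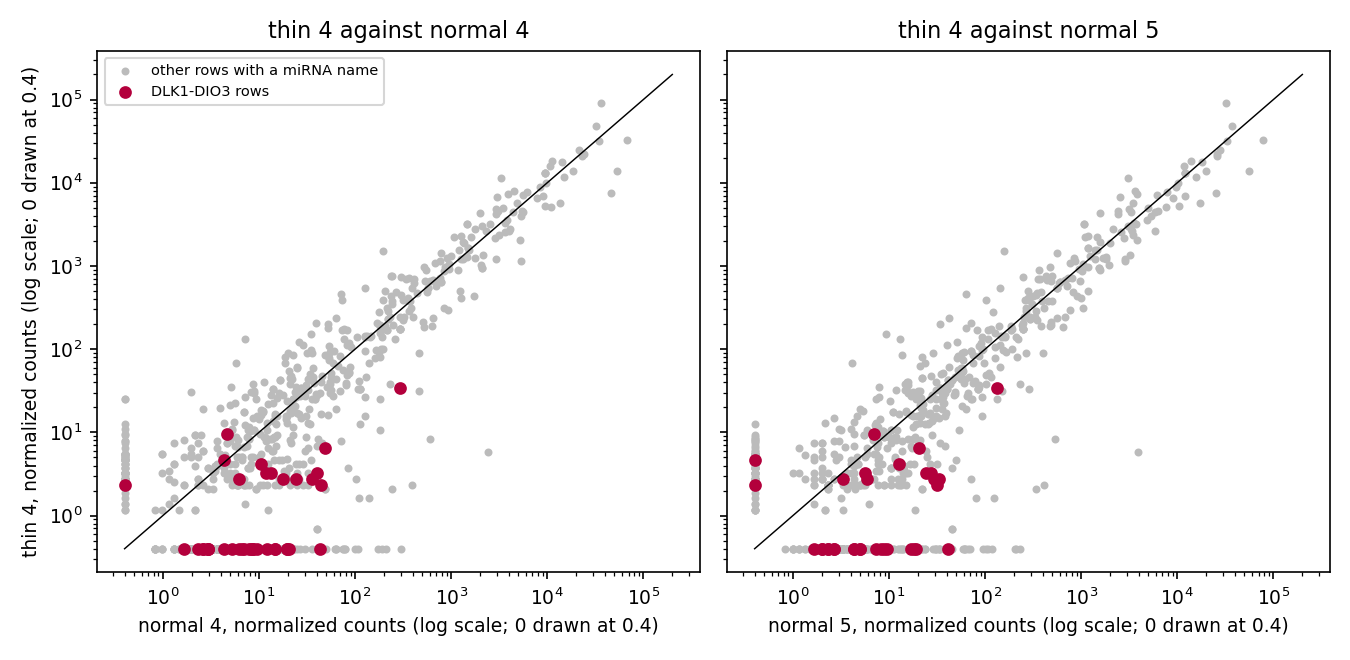
Normalized counts in thin 4 (vertical) against normal 4 (left) and normal 5 (right), on log axes with 0 drawn at 0.4, for member rows in red and all other rows with a miRNA name in grey; the line marks equal values. Of 13 members seen in both thin 4 and normal 4, 11 lie under the line, against 51.8% of named rows. The median ratio is 0.155 for these members and 0.963 for named rows.

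Normal 4 and normal 5 shared 22 of the 46 member rows detected in either, or 47.8%, while they shared 619 of 861 named rows, or 71.9%. Leaving aside the other libraries, 15 members were in normal 4 and not normal 5, and 9 the reverse. Over the 22 shared rows Spearman's rho was 0.71, a description across miRNAs that share their libraries. Of these rows 15 were higher in normal 4 and 7 in normal 5, and the median ratio of normal 5 to normal 4 was 0.768, while it was 1.03 over 619 named rows.

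MiR-127 and its neighbours lie antisense to RTL1, and in mice miR-127 and miR-136 pair perfectly with the RTL1 transcript and guide its cleavage. This RTL1-antisense group had rows for 6 of its 8 names and held 45.3% of the members' summed normalized counts in 10 rows. Without normal 4 and normal 5 it held 45.6%. MiR-127-3p alone held 36.6%, or 42.4% without that pair, and it ranked between 138 and 405 among the rows detected in a library. Its levels were 25.3, 36.3, 15.1, 293.5 and 133 normalized counts in normal 1 to normal 5, and 19.7, 122, 46.8, 34.6 and 15.9 in thin 1 to thin 5. Normal 4, normal 5 and thin 2 were high, normal 3 and thin 5 were lowest, and the groups overlapped fully.

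MiR-127-3p averaged 101 ± 118 normalized counts over the normal camels and 47.9 ± 43.4 over the thin ones (SD, n = 5 per group). On the scale of log2(value + 1), its log2 fold change of thin over normal was -0.62 ± 0.83 (SE, 95% interval -2.42 to 1.18), with a limma adjusted p of 0.812 over the 468 rows tested. It was -0.03 without normal 4 and 0.57 without normal 4 and normal 5 (adjusted p = 0.818). The share of miR-127 within the members' sum ranged from 23.3% in normal 1 to 76.2% in normal 3, and from 24.5% in thin 3 to 65.2% in thin 2. The mean was 42.2 ± 21.0% for the normal and 46.6 ± 17.1% for the thin group (exact p = 0.722).

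The other rows of the RTL1-antisense group were lower. MiR-136-3p, read from its second base (L-1), had 6.33, 0, 0, 43.9 and 31.8 normalized counts in normal 1 to normal 5 and 0, 0, 8.02, 2.30 and 0 in thin 1 to thin 5. It was highest in normal 4 and normal 5, and the remaining values of both groups overlapped. MiR-432-5p, a close neighbour of miR-127 and miR-136, was found only in normal 4 at 6.27 and normal 5 at 18.2. Of the 10 rows of the group, 7 were found only in that pair of libraries. As a share of the library the group had a mean of 0.0185 ± 0.0216% among normal camels and 0.00879 ± 0.00848% among thin ones (exact p = 0.452, adjusted p = 0.603).

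MiR-370 lies between the RTL1-antisense group and the larger cluster. Its 3p row had 6.33, 0, 0, 10.6 and 12.6 normalized counts in normal 1 to normal 5 and 0, 0, 6.69, 4.15 and 0 in thin 1 to thin 5. It was thus at 0 in 2 normal and 3 thin camels and highest in normal 5.

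The miR-379 to miR-410 group is the largest miRNA cluster of the region, with hairpins that arose by repeated duplication, and is the cluster whose loss in mice disturbs metabolism after birth. Of its 44 names 26 had rows, 37 in all, and they held 52.8% of the members' sum, or 52.1% without normal 4 and normal 5. Its share was 0.0224 ± 0.0240% among normal camels and 0.00897 ± 0.00746% among thin ones (exact p = 0.325, adjusted p = 0.559). Of its rows, 18 were found only in normal 4, normal 5 or both. Its most abundant row, miR-381-3p, was the other member that could be tested. It had 18.98, 15.6, 0, 48.5 and 20.6 normalized counts in normal 1 to normal 5, and 11.5, 27.4, 45.5, 6.45 and 0 in thin 1 to thin 5. Normal 4 and thin 3 were highest, and each group held a camel at 0.

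MiR-381-3p averaged 20.7 ± 17.6 normalized counts over the normal camels and 18.2 ± 18.3 over the thin ones. Its log2 fold change was -0.30 ± 1.24 (SE, 95% interval -3.00 to 2.39), with a limma adjusted p of 0.963. It was 0.18 without normal 4, 0.54 without thin 5 and 0.59 without normal 4 and normal 5 (adjusted p = 0.903). Of the 468 rows tested, 9 or 1.92% passed an adjusted p of 0.05, and 0 of the 2 members did. At an unadjusted p under 0.05 there were 55 rows, or 11.8%, and again 0 members. The intervals given for these miRNAs reach to both sides of 0, so neither a rise nor a fall within them was excluded.

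**Figure D4:**
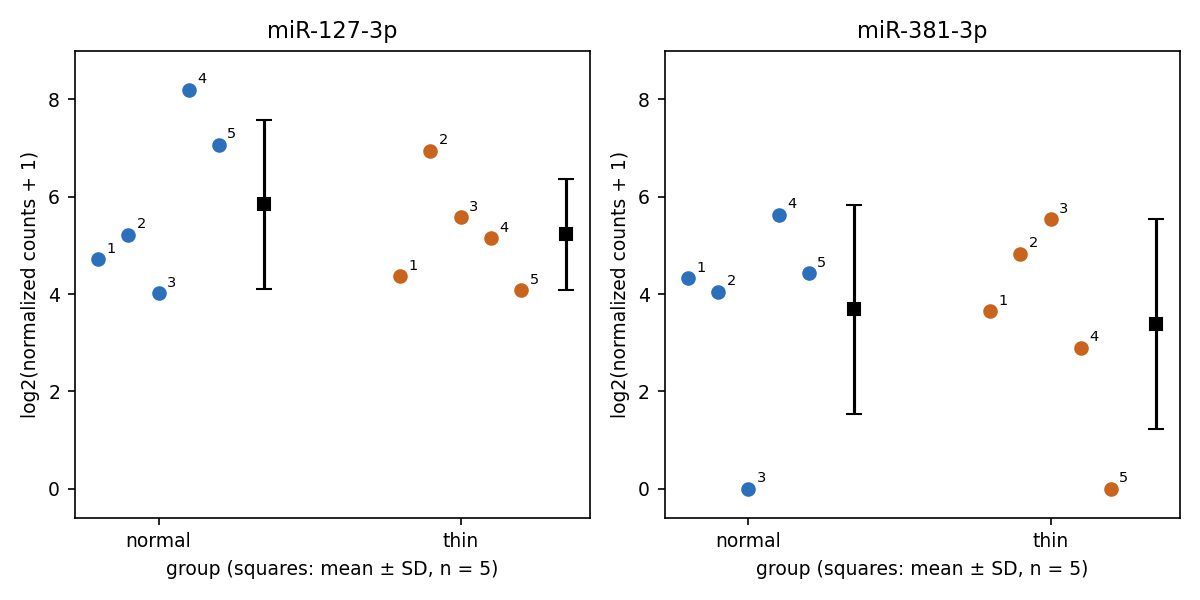
log2(normalized counts + 1) of miR-127-3p (left) and miR-381-3p (right) in each camel, numbered by replicate, with group means ± SD (n = 5) as squares. The groups overlap for both miRNAs, with normal 4 highest in each panel.

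**Figure D5:**
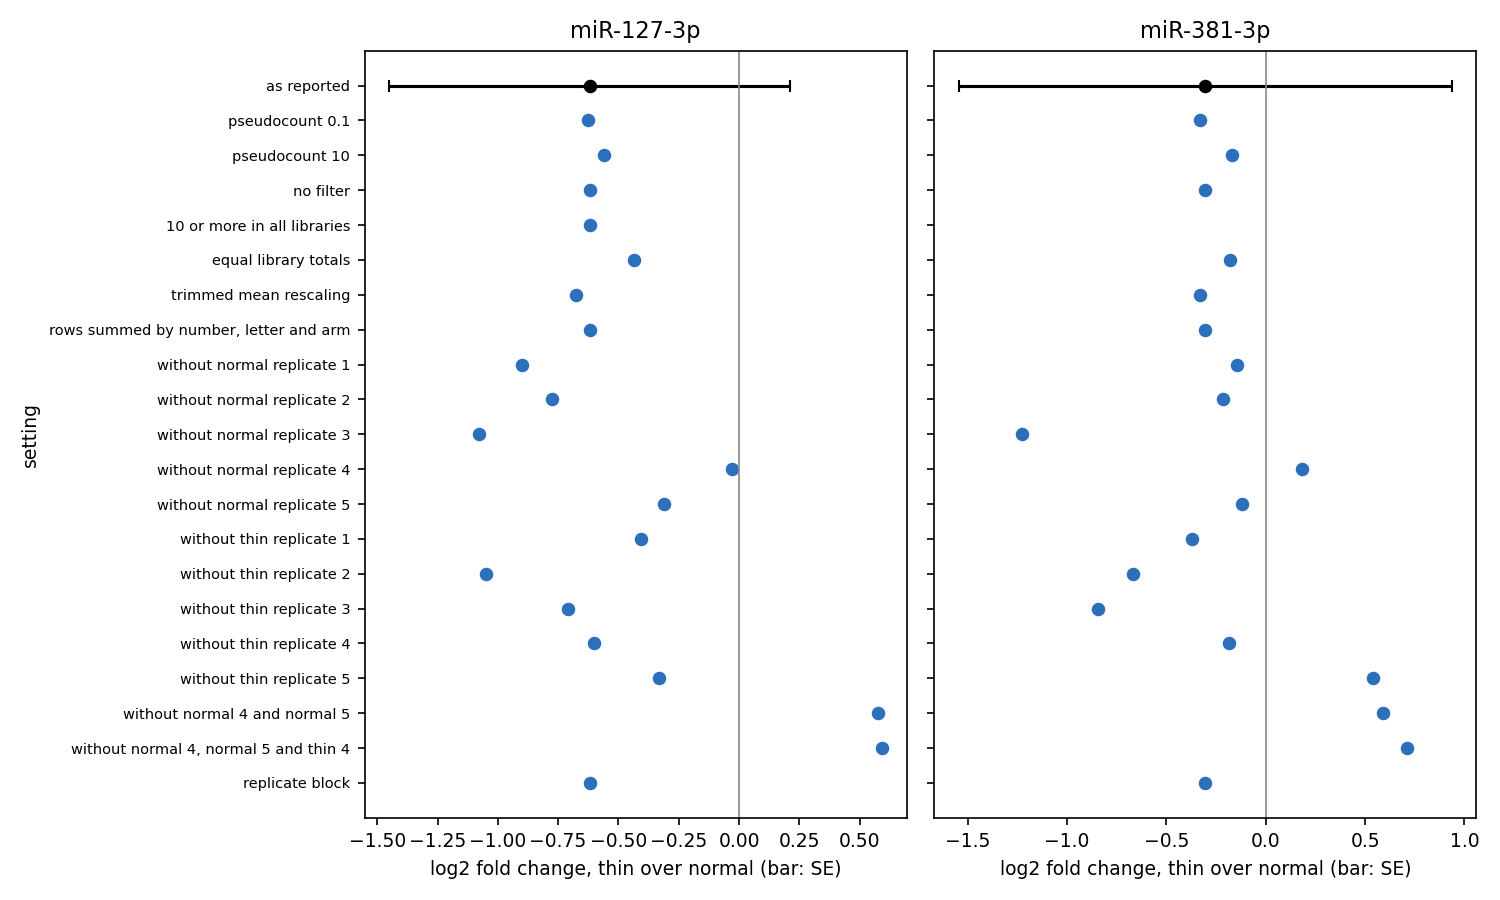
log2 fold change of thin over normal (horizontal) for both tested members as reported (black, with its SE) and under each alternative setting (blue; vertical). The values turn positive for both when normal 4 and normal 5 are left out, at 0.57 and 0.59.

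The remaining rows with high means in this cluster differed in which libraries held them. MiR-411-5p had 6.33, 0, 0, 43.3 and 40.8 normalized counts in normal 1 to normal 5 and 0, 0, 13.4, 0 and 9.52 in thin 1 to thin 5. MiR-369-3p, which in human cells can raise translation of the TNF messenger RNA, had 0, 0, 0, 35.99 and 29.2 and then 0, 14.8, 25.4, 2.77 and 0. In both, normal 4 and normal 5 were highest, with thin 3 next. MiR-494-3p had 12.7, 0, 0, 24.1 and 32.8 in normal 1 to normal 5, and 0, 0, 14.7, 2.77 and 0 in thin 1 to thin 5. MiR-409-3p had 0, 0, 0, 40.0 and 24.2, and 9.87, 0, 9.36, 3.23 and 0. Thin 3 was again the highest thin library for miR-494-3p, and thin 1 for miR-409-3p.

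MiR-382-5p was highest in normal 5, with 10.1, 0, 0, 11.9 and 27.2 normalized counts in normal 1 to normal 5 and 0, 0, 6.69, 3.23 and 0 in thin 1 to thin 5. MiR-656-3p had 0, 0, 0, 20.5 and 16.9, and 0, 12.7, 8.02, 0 and 0. MiR-379-5p, the first hairpin of the cluster, had 16.4, 0, 0, 17.8 and 5.97, and 0, 0, 0, 2.77 and 0. In miR-379-5p normal 1 came close to normal 4, although its library was far less deep. MiR-409-5p had 0, 8.65, 0, 13.2 and 5.64 in the normal libraries and a single thin value of 3.23 in thin 4. Groups overlapped in all 12 of the rows printed above, and among all 468 tested rows 3.63% had groups that did not overlap. Except for miR-127-3p, each of the 12 rows had a 0 in both groups, which by itself makes the groups overlap. Only miR-127-3p and miR-381-3p were among the 468, so the 3.63% is of a set of better detected rows. MiR-410-3p, the end of the cluster by name, was found only in normal 4 at 9.57 and normal 5 at 19.2.

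Both arms of the hairpin were seen for 11 of the 33 names, but for only 2, miR-136 and miR-409, when normal 4 and normal 5 were left out. In those 2 the 3p arm was also the larger without the pair, with 16.7 against 6.69 normalized counts for miR-136 and 22.5 against 11.9 for miR-409. The sums that follow are over all 10 libraries. MiR-127, miR-136, miR-329, miR-369, miR-380 and miR-409 had the larger sum on the 3p arm, with 743 against 4.97 normalized counts for miR-127 and 108 against 4.29 for miR-369. MiR-382, miR-411 and miR-432 had the larger sum on the 5p arm, with 113 against 10.9 for miR-411 and 59.1 against 5.28 for miR-382. MiR-299 and miR-485 had similar small sums on both arms. The higher arm was the same in every library that held either arm, except for miR-299, miR-409 and miR-485. Apart from those names, both arms were found together in 2 libraries for miR-136 and miR-411, and in 1 for each other name. Elsewhere the lower arm was at 0, or fewer than 5 reads, so this sameness is mostly that of a single detected arm. MiR-329 was found in normal 4 alone. Of rows with a stated arm, the 3p arm held a mean of 82.5 ± 12.3% of the sum for normal and 85.2 ± 15.9% for thin camels (exact p = 0.786).

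Base changes marked some of the rarer members. Of the 48 rows, 13 carried a substitution and 6 began at another base than the named miRNA, which shifts the seed. The G9T change stood in 4 member rows, which are shown because each was the only row of that arm in the table, here with the changed base in capitals.
bta-miR-433_1ss9GT: atcatgatTggctcctcggtgt
hsa-miR-493-5p_R-1_1ss9GT: ttgtacatTgtaggctttcat
cfa-miR-889_R-1_1ss9GT: ttaatatcTgacaaccattgt
hsa-miR-127-5p_L-2_1ss11GT: gaagctcaTagggctctgat

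MiR-433 had 19.5 normalized counts in normal 4 and 1.99 in normal 5, miR-493-5p 7.92 and miR-889 12.2 in normal 4, and miR-127-5p 4.97 in normal 5. All 4 were at 0 in the other 8 libraries. The table as a whole held 56 rows with G9T, of which 41 had values only in normal 4 or normal 5. The name of the miR-127-5p row counts its change from the first base of the named miRNA, of which 2 bases were lost, so that it too falls on base 9 of the read. With all 13 rows with a substitution left out, detected rows averaged 7.4 fewer in thin than in normal libraries (exact p = 0.317), against 9.6 fewer with them.

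A different change fell within the seed of miR-376b-3p. MiR-376 RNAs are known in human and mouse brain for editing of adenosine to inosine, which is read as A-to-G, and a change in the seed alters the targets. The row of miR-376b-3p carried A6G, with the changed base in capitals here.
mmu-miR-376b-3p_1ss6AG: atcatGgaggaacatccactt

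It had 10.5 normalized counts in thin 2, or 5 reads, and 0 in the other 9 libraries, and there was no row of miR-376b without the change. At 5 reads it sits at the least that the table shows. The camel sequence was not used here, so a difference between camel and mouse and an edited base cannot be told apart.

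Outside the list of members, 5 further names of the region were looked for, and 4 rows bore one of them. Rows with other names outside the list were not counted. Among these was miR-434-3p, at 17.2 normalized counts in normal 4, 31.2 in normal 5 and 0 in thin 4. MiR-300-3p, miR-770-5p and miR-1247-5p were found only in normal 4, at 1.98, 2.97 and 7.59 normalized counts. A miR-300 row with no arm given had 8.25 in normal 4 and 12.7 in thin 2.

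In the summed share of each marker list of other sources, normal 4 and normal 5 lay within the range of the other 8 libraries. Neuronal miRNAs had a share of 0.171% to 0.187% in the normal and 0.129% to 0.395% in the thin group, and muscle miRNAs 0.0696% to 0.0866% and 0.0845% to 0.174%. The neuronal list counted miR-128-3p under both a human and a mouse name, at 579 normalized counts each in normal 4. Of its 20 rows, 16 were detected in normal 4 and 12 in normal 5, against 4 to 11 in the others. For all named rows this was 78.7% and 74.0%, against 42.3% to 59.8%. Single rows went both ways in normal 4, normal 5 and thin 4. MiR-124-3p (R-1) had 20.5, 12.6 and 3.69 normalized counts, miR-129-2-3p 24.1, 31.8 and 4.15, and miR-129-5p 19.5, 10.6 and 2.77. The row hsa-miR-9-3p had 0, 1.33 and 5.38, but oan-miR-9-3p_R+1 had 9.91, 7.96 and 5.07. MiR-218-5p had 1.32, 0 and 7.37, and miR-132-3p 22.1, 58.4 and 43.3. These rows are examples from the list and not all of it. The liver list made up 3.99% to 7.52% of normal 4 and normal 5 and 1.36% to 13.3% of the others. The red blood cell list had a mean of 21.2% in normal (14.7% to 28.5%) and 11.5% in thin camels (7.75% to 14.9%), and its part in the comparisons above was not tested. It made up 19.2% to 20.6% of normal 4 and normal 5, and the platelet and myeloid list 6.84% to 7.90% of that pair and 4.78% to 10.2% of the others. In plasma, fewer vesicles from a tissue and less of an RNA per vesicle cannot be told apart.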

How the data were processed

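Small RNA libraries from plasma exosomes of 10 camels were analysed. Exosomes came from supercentrifugation, per the labels' protocols, which name mirVana for RNA extraction, TruSeq for library preparation and Illumina HiSeq for sequencing. Per the labels' protocols, the program ACGT101-miR removed adapter dimers, junk, common RNA families and repeats. The protocols speak of 9 libraries while labels and table give 10, which was not settled here. The deposited values are a signal that the authors' column headers call normalized counts. The factor of each library, mapping reference and build are not given in the sources used here. Another 2 lines held no entry.

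Of values up to 100 reads, 88.3% to 91.8% per library were whole multiples of the step taken as 1 read (tolerance 0.02), and 98.8% to 99.9% multiples of 0.5 of it. These reads served to describe depth only, since whole reads were not recovered for nearly all rows, and no count test was run. The planned test for normalized values was used. Rows at 10 or more in at least 5 libraries (468) were fitted as log2(value + 1) by limma 3.58.1 (R 4.3.3, mean trend, no covariate beside group) with Benjamini-Hochberg adjustment over all 468. The fit was tested on simulated data. Values per library were compared by exact permutation tests in Python 3.11.15 (numpy 2.4.6, scipy 1.17.1, pandas 2.3.3), and figures drawn with matplotlib 3.10.9. Named rows were the tested members, the 12 members with the highest mean, those in all libraries and those whose groups do not overlap (0). Other rows were named after their values were seen. The members and lists were chosen with earlier results of these data known.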

Additional observations from a re-analysis of the deposited data

Results flagged for a closer look

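In groups of 5, a library was looked for whose gap to the nearest other exceeded Dixon's critical value as a share of the group's range, in 40 groups of the 12 named rows and the 8 measures per library. This was found in 4 groups, and for separate groups with a bell-shaped (Gaussian) spread chance gives about 1 in 20. The groups here share their libraries and many hold values of 0, so that rate cannot be set against the 4 found. Thin 3 stood apart within the thin camels for miR-136-3p (hsa-miR-136-3p_L-1) at 8.02 normalized counts, where the next was 2.30, and for miR-494-3p (hsa-miR-494-3p_R+1) at 14.7, where the next was 2.77. Thin 4 stood apart for miR-379-5p at 2.77 and for miR-409-5p at 3.23, where all other thin libraries were at 0. Both values lie below the value of 5 reads in each other thin library, 6.69 to 10.5 normalized counts, and the part of depth was not tested.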

How the results depend on the processing

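No member passed the limma test and no measure per library passed its exact test under any of the alternatives run. Among all rows tested, 9 were called, 15 with no filter, 3 without normal 4 and normal 5, and 5 without normal 4, normal 5 and thin 4, with fewer libraries in the last pair of fits. Without normal 4 and normal 5, and then also without thin 4, the differences of thin minus normal turned to 1.87 and 0.167 for detected rows and for detected mature names, 0.00789 and 0.00928 percentage points for the members' share, 38.9 and 44.6 for their summed normalized counts, 0.00312 and 0.00375 for the miR-379 to miR-410 group and 0.00474 and 0.00558 for the RTL1-antisense group. The share of miR-127 turned to -2.12 and -0.668, and the share of the 3p arm to -0.510 without normal 4 and normal 5. The log2 fold change was 0.57 and 0.59 for miR-127-3p and 0.59 and 0.71 for miR-381-3p.

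With each library left out in turn, the calls over the whole table ranged from 6 to 11 and those of members stayed at 0. The log2 fold change ranged from -1.08 to -0.03 for miR-127-3p and from -1.23 to 0.54 for miR-381-3p. Ranges were -13.3 to -4.55 for detected rows, -12.6 to -4.3 for mature names, -0.0334 to -0.00631 for the members' share, -261 to -68.2 for their sum, -0.379 to 12.9 for the share of miR-127, -0.926 to 8.45 for the 3p arm, -0.0189 to -0.00476 for the miR-379 to miR-410 group and -0.0138 to -0.00123 for the RTL1-antisense group.

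Same-numbered camels deviated together with correlations of -0.20 to 0.52, and 2 of 5 normal libraries correlated best with their own number, so the numbers were not taken as pairs. With a replicate block 9 rows and 0 members were called. Counting each sequence once and leaving out miR-127, which changed no direction, and the composition without normal 4 and normal 5 were chosen after seeing the data. The floor of 5 reads limits what a 0 means in every library, at 1.65 to 2.30 normalized counts in the 3 deepest and 4.73 to 10.5 in the others.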
